A study of Mus musculus with 12 samples.

Results

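A group of 39 cardiomyocyte genes was followed in bulk RNAseq of neonatal mouse cardiac fibroblast cultures during endothelial reprogramming with *Sox17* and *Erg*. The genes were chosen by symbol as components of the sarcomere, calcium handling proteins and other proteins typical of heart muscle, and were 39 of the 35727 genes in the deposited table. All 39 had at least 1 count, and 36 passed the filter on low counts and were tested. *Csrp3*, *Xirp2* and *Ckm* did not pass. Of the 36, 25 were over the filter's minimum of 0.4 CPM, the count scaled to library size, in all 12 libraries, and the other 11 passed on fewer libraries.

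The cultures came from hearts of newborn mice that were pooled before the cells were isolated with antibodies to the fibroblast surface protein THY1. The methods name C57BL/6J mice and mice with *Tcf21*-CreERT2 and *Rosa26*-tdTomato as sources, and which of these gave each library is not stated in the sources used here. Both arms were retrovirally infected cultures in EGM2, an endothelial growth medium. In 6 libraries the retroviruses carried *Sox17* and *Erg*, which are endothelial transcription factors, and the labels call these cells induced endothelial cells (iECs). The other 6 are labelled control fibroblasts, with column names of the pMX retroviral backbone. Each arm was sampled at 3 times, Day 3, Day 7 and 4 weeks, and each of the 6 groups held 2 libraries. Nothing in the labels says whether replicate libraries came from separate isolations, so p-values measure only the spread between these libraries.

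Library totals ran from 19011635 to 41240449 counts. *Sox17* had 0 to 0.416 CPM in control libraries and 432 to 1036 CPM in *Sox17*-*Erg* libraries, and *Erg* had 0.0728 to 2.27 and 17.1 to 65.2 CPM. The summed level of 10 fibroblast markers was 12824 to 42007 CPM over all libraries, and that of 10 endothelial markers was 20.9 to 61.4 CPM in control and 314 to 774 CPM in *Sox17*-*Erg* libraries. Fibroblast markers were thus the most abundant of the cell type markers in all libraries.

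The sarcomere is the contractile unit of striated muscle, in which myosin of the thick filament pulls on actin of the thin filament. Calcium starts each contraction by binding the troponin complex on the thin filament, and titin, the Z-disc and the M-band hold the filaments in register. In heart muscle, calcium enters through L-type channels, is released from the sarcoplasmic reticulum through the ryanodine receptor and is pumped back by SERCA2a. Most of these genes are restricted to striated muscle, while some, such as *Atp2a2* and *Cryab*, are also used in many other cells.

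The sequences before the RefSeq start are shown for 5 genes with calls at 4 weeks and 1 start in the table, *Myoz2* and *Myom1* higher and *Myh6*, *Mybpc3* and *Tnni3* lower in *Sox17*-*Erg* samples. Each line gives the 250 bases before the RefSeq start, from the GRCm38.p6 build and read 5′ to 3′ on the gene's strand. Capitals mark matches to the motifs described with the results, and the *Tnni3* sequence holds none of them. On GRCm38, GENCODE M21 places *Myoz2* (ENSMUSG00000028116) at chr3:123006206-123035015 on the minus strand, *Myom1* (ENSMUSG00000024049) at chr17:71002633-71126856 on the plus strand, *Myh6* (ENSMUSG00000040752) at chr14:54941921-54966927 on the minus strand, *Mybpc3* (ENSMUSG00000002100) at chr2:91118144-91136516 on the plus strand and *Tnni3* (ENSMUSG00000035458) at chr7:4518305-4524229 on the minus strand. All 250 bases shown for *Myom1*, *Myh6* and *Tnni3* and 28 of those for *Myoz2* lie inside the longer GENCODE gene, and 0 of those for *Mybpc3* do.
*Myoz2*, chr3:123034988-123035237, minus strand: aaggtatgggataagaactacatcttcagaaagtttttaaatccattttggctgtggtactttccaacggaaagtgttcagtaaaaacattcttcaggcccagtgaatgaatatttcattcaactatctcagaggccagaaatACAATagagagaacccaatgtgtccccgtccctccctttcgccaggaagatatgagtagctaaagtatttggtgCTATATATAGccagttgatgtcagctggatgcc
*Myom1*, chr17:71019307-71019556, plus strand: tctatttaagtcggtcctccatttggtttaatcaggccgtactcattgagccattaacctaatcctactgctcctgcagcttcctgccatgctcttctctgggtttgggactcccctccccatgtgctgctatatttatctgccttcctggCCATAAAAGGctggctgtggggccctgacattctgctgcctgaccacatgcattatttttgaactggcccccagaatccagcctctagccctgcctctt
*Myh6*, chr14:54966608-54966857, minus strand: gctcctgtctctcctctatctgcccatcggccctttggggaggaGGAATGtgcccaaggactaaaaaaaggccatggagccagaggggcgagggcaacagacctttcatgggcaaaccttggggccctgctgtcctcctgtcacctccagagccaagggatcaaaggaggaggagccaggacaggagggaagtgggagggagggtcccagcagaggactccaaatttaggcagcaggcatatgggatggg
*Mybpc3*, chr2:91117894-91118143, plus strand: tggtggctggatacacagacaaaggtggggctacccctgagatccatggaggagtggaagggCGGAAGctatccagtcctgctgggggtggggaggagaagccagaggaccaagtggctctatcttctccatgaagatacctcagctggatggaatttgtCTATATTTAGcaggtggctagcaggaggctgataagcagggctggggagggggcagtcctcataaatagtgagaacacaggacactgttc
*Tnni3*, chr7:4522529-4522778, minus strand: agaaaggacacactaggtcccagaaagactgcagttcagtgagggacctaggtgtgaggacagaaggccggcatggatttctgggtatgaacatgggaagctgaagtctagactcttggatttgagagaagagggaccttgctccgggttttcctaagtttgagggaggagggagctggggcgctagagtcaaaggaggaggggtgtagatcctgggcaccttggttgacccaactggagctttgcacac

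The 39 genes covered a wide range of levels. *Tnnt2*, *Atp2a2*, *Hspb7* and *Cryab* had means of 695, 418, 349 and 282 CPM over the 12 libraries, and together held 87.1% to 93.7% of the summed CPM of the 39 genes in each library. Per kilobase of exon, *Cryab* ranked first with 190 CPM per kb, followed by *Hspb7* with 126, *Tnnt2* with 89.6 and *Atp2a2* with 68.7. *Nppa* followed with 23.3 and *Myh6* with 6.31 CPM per kb. Of the genes that define cardiomyocytes, *Nkx2-5* was at most 0.704 CPM in any library, *Tnni3* at most 4.31, *Actn2* at most 4.31, *Myl2* at most 6.06, *Myh7* at most 7.31, *Myl7* at most 9.42 and *Ryr2* at most 11.7 CPM. *Nppa*, *Myh6* and *Tnnt2*, which also count among these genes, reached 68, 135 and 1431 CPM. *Tnnt2* had at least 298 CPM in every library, while *Nkx2-5* never exceeded 0.704 CPM. Which cells held the *Tnnt2* RNA was not tested. Summed over the 35 genes outside the 4 most abundant, the level was 137 to 371 CPM in control libraries and 114 to 174 CPM in *Sox17*-*Erg* libraries. Bulk RNA cannot tell apart fewer cells of a type and less RNA per cell, and this holds for every difference that follows.

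**Figure D1:**
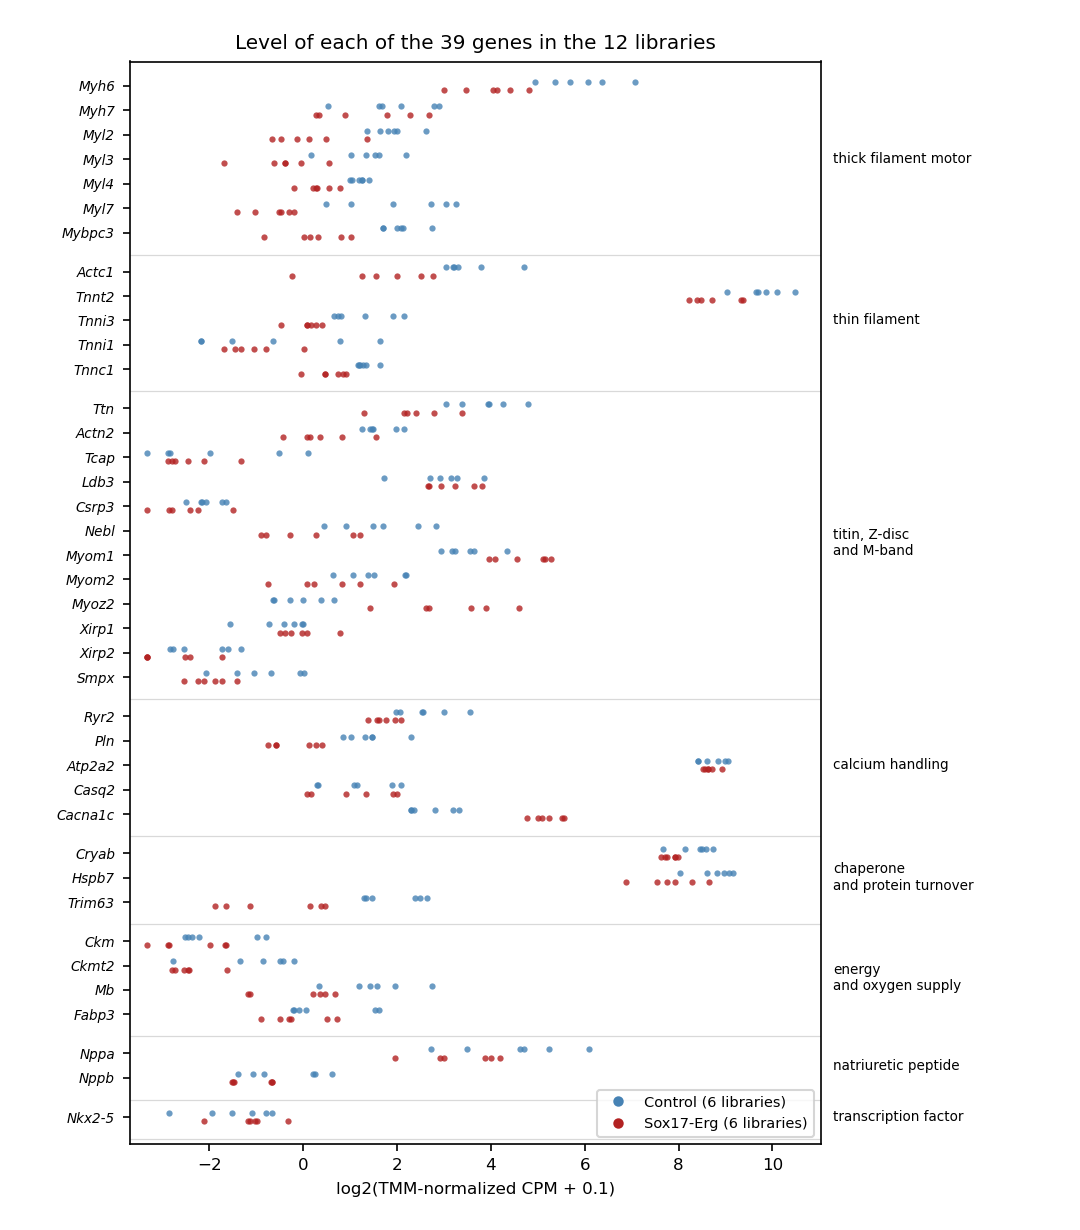
Level of each of the 39 genes in the 12 libraries as log2 of TMM-normalized CPM plus 0.1, grouped by role, with blue points for the 6 control and red points for the 6 *Sox17*-*Erg* libraries. *Tnnt2*, *Atp2a2*, *Hspb7* and *Cryab* stand far above the other genes, and *Cacna1c* and *Myoz2* are higher in every *Sox17*-*Erg* library than in any control library. Red points tend to lie to the left of blue points for most of the sarcomere genes. With the time points pooled, red and blue points overlap for many of them, such as *Tnnt2* and *Ttn*.

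*Sox17*-*Erg* and control samples were compared at each time point to see which of these genes differed during reprogramming. On Day 3, 1 of the 36 tested genes was higher and 6 were lower in the *Sox17*-*Erg* samples, where 7.19% of all 15506 tested genes were called higher and 5.13% lower by edgeR's quasi-likelihood test at a Benjamini-Hochberg adjusted p under 0.05. On Day 7, 4 were higher and 9 lower, where 9.48% and 7.93% of all tested genes were. At 4 weeks, 3 were higher and 15 lower, against 11.9% and 11.0% of all tested genes. The share of the 36 called in either direction was 19.4%, 36.1% and 50% at the 3 time points, where 12.3%, 17.4% and 22.9% of all tested genes were called. *Ckmt2*, *Smpx* and *Tcap* were over the filter's minimum in control libraries only. Of the 33 genes over it in both arms, 1 was higher and 6 lower on Day 3, where 7.07% and 5.29% of all such genes were. On Day 7 these numbers were 4 and 8, without *Ckmt2*, against 9.18% and 7.83%, and at 4 weeks 3 and 15, against 11.4% and 10.9%.

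The median log2 fold change of the 36 genes was -0.85 on Day 3, -0.65 on Day 7 and -1.46 at 4 weeks, where that of all tested genes was 0.01, 0.01 and -0.01. It was negative in 31, 27 and 29 of the 36. Both *Sox17*-*Erg* libraries lay below both control libraries of the time point for 19 of the 36 on Day 3, 22 on Day 7 and 28 at 4 weeks, where 29.9%, 28.8% and 32.4% of all tested genes did. Both lay above both control libraries for 4, 6 and 4 genes, where 34.1%, 29.0% and 30.3% of all tested genes did. Of the 33 genes over the filter's minimum in both arms, 19, 20 and 25 lay below, where 29.9%, 28.5% and 32.2% of all such genes did, and 3, 6 and 4 lay above, where 34.3%, 28.8% and 30.0% did. Their median log2 fold change was -0.84, -0.64 and -1.09, and the values were negative in 29, 25 and 26 of them. The 3 comparisons contrast different libraries, but their calls come from 1 fit that estimates the spread from all 12 libraries. The control libraries of each are also used in the comparisons of control time points further on.

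With 2 libraries in a group, single libraries decided some of these counts. On Day 3 the count of 6 lower genes ranged from 1 to 6 when 1 of the 12 libraries was left out, with 1 without *Sox17*-*Erg* Day 3 replicate 1, 2 without *Sox17*-*Erg* Day 3 replicate 2, 2 and 3 without control Day 3 replicates 1 and 2, and 3 without *Sox17*-*Erg* 4 weeks replicate 2. On Day 7 the 9 lower genes became 1 without *Sox17*-*Erg* Day 7 replicate 1 and 3 without either control Day 7 library. At 4 weeks the 15 lower genes became 6 without *Sox17*-*Erg* 4 weeks replicate 1, and the count was 11 to 16 without any 1 of the other libraries. The higher genes numbered 1 to 2 on Day 3, 3 to 4 on Day 7 and 3 to 4 at 4 weeks in these fits, with 2 on Day 3 without *Sox17*-*Erg* Day 3 replicate 2 or *Sox17*-*Erg* Day 7 replicate 1.

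Libraries with the same replicate number at a time point also deviated in the same direction from their group means, with correlations over all genes of 0.287, 0.403 and 0.208, although nothing in the labels pairs them. The study's methods say that control and treated replicates were run in parallel with viruses made on 1 day, without tying single libraries to each other. With these libraries treated as pairs, which was added after seeing the data and left 3 residual degrees of freedom, edgeR called 2 genes higher and 12 lower on Day 3, where 12.7% and 10.4% of all tested genes were called. On Day 7 it called 5 higher and 15 lower, *Ckmt2* included, where 13.8% and 13.3% were, and at 4 weeks 3 higher and 17 lower, where 15.5% were called higher and 15.5% lower. The genes gained were *Myoz2* (higher), *Actc1*, *Ldb3*, *Mybpc3*, *Myh6*, *Nppa* and *Ttn* (lower) on Day 3, *Ldb3* (higher), *Actc1*, *Actn2*, *Mb*, *Myl3*, *Nppa*, *Tnnt2* and *Ttn* (lower) on Day 7, and *Myh7* and *Ryr2* (lower) at 4 weeks. *Myl4* on Day 7 was the only call lost. The tests of single genes that follow are without these pairs unless stated.

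**Figure D2:**
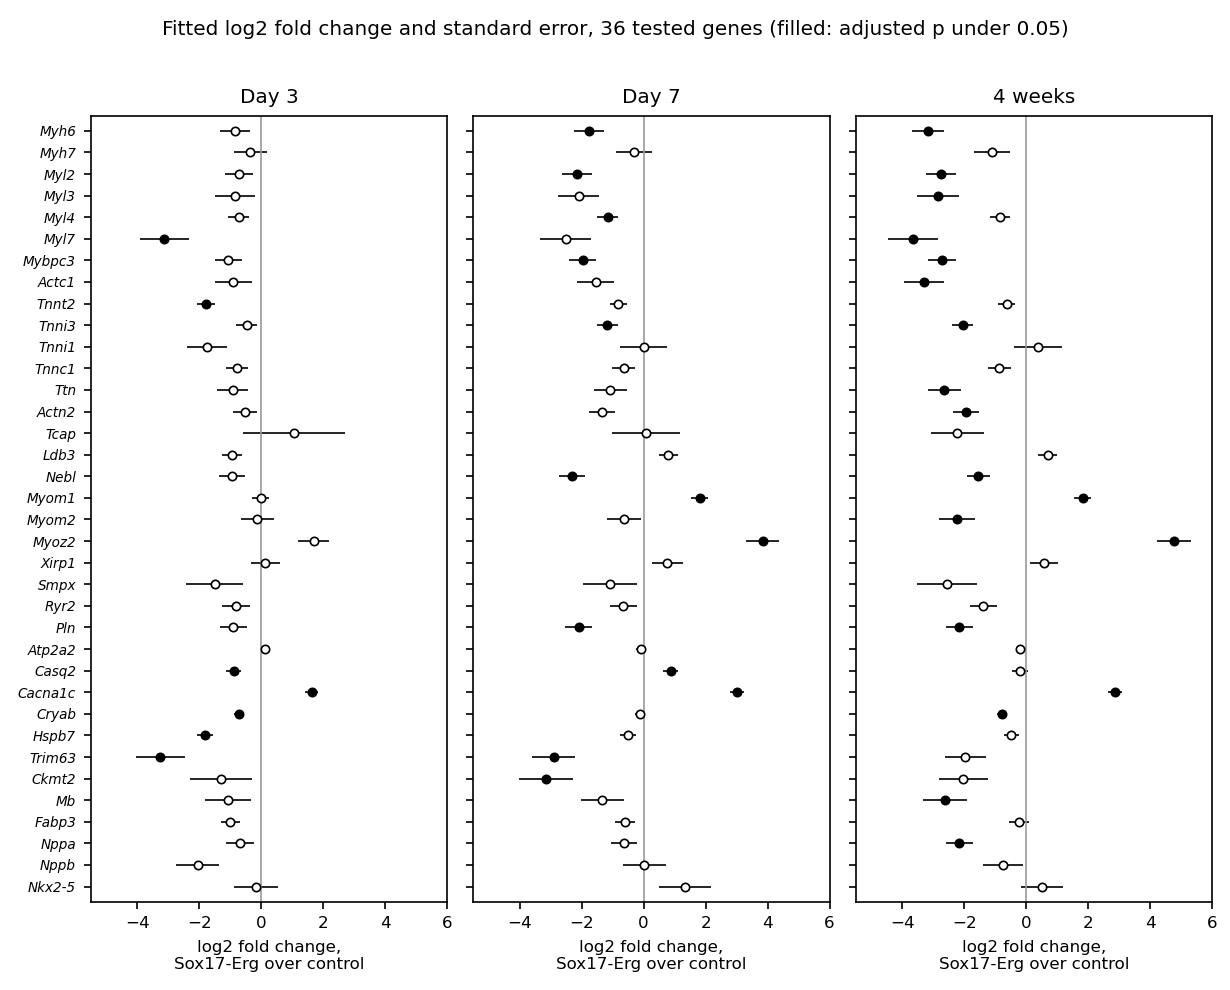
Fitted log2 fold change of *Sox17*-*Erg* over control samples with its standard error for the 36 tested genes on Day 3, Day 7 and 4 weeks, with filled points for an adjusted p under 0.05 by edgeR. The filled points on the right are *Cacna1c* in all panels, *Myoz2* and *Myom1* on Day 7 and 4 weeks and *Casq2* on Day 7, and the filled points on the left increase from 6 to 9 to 15.

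Of 7 tested genes of myosin and its binding protein, 1 was called on Day 3, 4 on Day 7 and 5 at 4 weeks, all in the direction of lower levels in *Sox17*-*Erg* samples, where 5.13%, 7.93% and 11.0% of all tested genes were called lower, with median log2 fold changes of -0.84, -1.97 and -2.74. *Myh6*, which encodes the alpha myosin heavy chain of the adult mouse heart, had 51.1 and 30.4 CPM in control libraries on Day 3, 40.9 and 67.4 on Day 7, and 82.5 and 135 at 4 weeks. *Sox17*-*Erg* libraries had 28.1 and 17.4 CPM, 10.9 and 21.1, and 7.89 and 16.5. The groups did not overlap at any time point, and the log2 fold change was -0.84 on Day 3 (standard error 0.48, edgeR adjusted p = 0.27), -1.76 on Day 7 (0.49, 0.036) and -3.16 at 4 weeks (0.51, 0.0025). The difference in effect between 4 weeks and Day 3, -2.31, had an adjusted p of 0.12, and it was called with same-numbered libraries as pairs. The Day 7 call was lost without control Day 7 replicate 2 (log2 fold change -1.36, adjusted p = 0.18) or *Sox17*-*Erg* Day 7 replicate 1 (-1.36, 0.24). *Myh6* shares 29.1% of its 31-base words with *Myh7*, so that counts of the pair are uncertain where reads could be assigned to either.

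*Mybpc3*, the cardiac myosin-binding protein C, had 4.26 and 3.14 CPM in control libraries on Day 3, 3.88 and 4.14 on Day 7, and 3.13 and 6.59 at 4 weeks, against 1.92 and 1.64, 0.91 and 1.14, and 0.46 and 1 CPM in *Sox17*-*Erg* libraries. Every *Sox17*-*Erg* library was below both controls of its time point. The log2 fold change was -1.97 on Day 7 (standard error 0.44, edgeR adjusted p = 0.016) and -2.72 at 4 weeks (0.45, 0.0029). On Day 7 the call was lost without control replicate 2 (-1.92, adjusted p = 0.063) or *Sox17*-*Erg* replicate 1 (-1.81, 0.13).

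*Myl2*, the ventricular regulatory light chain, had 3.71 and 2.45 CPM in control libraries on Day 3, 3.88 and 3.38 on Day 7, and 3.03 and 6.06 at 4 weeks, against 2.48 and 1.29, 0.993 and 0.615, and 0.531 and 0.815 CPM in *Sox17*-*Erg* libraries. The groups overlapped on Day 3 and were apart later, with log2 fold changes of -2.15 on Day 7 (edgeR adjusted p = 0.016) and -2.74 at 4 weeks (0.0041). Leaving out control Day 7 replicate 1 or either *Sox17*-*Erg* Day 7 library moved the Day 7 adjusted p to 0.052, 0.064 and 0.068. *Myl7*, the atrial regulatory light chain, had 9.42 and 1.94 CPM in control libraries on Day 3, 3.65 and 1.29 on Day 7, and 8.14 and 6.55 at 4 weeks, against 0.708 and 0.603, 0.276 and 0.615, and 0.389 and 0.778 CPM. Control libraries varied widely and all *Sox17*-*Erg* libraries were below them. Its log2 fold change was -3.12 on Day 3 (standard error 0.80, edgeR adjusted p = 0.038), -2.52 on Day 7 (0.82, 0.064) and -3.65 at 4 weeks (0.80, 0.011). The Day 3 value was -1.56 (adjusted p = 0.23) without control Day 3 replicate 1, and the call was lost in 7 of 12 such fits. At 4 weeks it was lost without *Sox17*-*Erg* replicate 1 (-3.24, 0.094).

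The essential light chains were each called at 1 time point. *Myl3*, the ventricular form, had 1.93 and 4.47 CPM in control and 0.212 and 0.667 CPM in *Sox17*-*Erg* libraries at 4 weeks, after 2.95 and 1.02 against 1.37 and 0.862 on Day 3 and 2.42 and 2.77 against 0.551 and 0.659 on Day 7. The groups overlapped only on Day 3. It was called at 4 weeks (log2 fold change -2.85, edgeR adjusted p = 0.016), and not without control replicate 2 (-2.12, 0.082) or *Sox17*-*Erg* replicate 1 (-2.26, 0.11). *Myl4*, the atrial form, had 1.96 and 2.17 against 1.37 and 1.12 CPM on Day 3, 2.27 and 1.89 against 0.772 and 1.1 on Day 7, and 2.53 and 2.28 against 1.06 and 1.63 at 4 weeks. All *Sox17*-*Erg* libraries were lower, with a call on Day 7 (-1.16, adjusted p = 0.039) that was lost in 8 of 12 fits without a library, over a range of -1.46 to -0.92. *Myh7*, the slow myosin heavy chain that predominates in the fetal mouse heart, had 1.34 to 7.31 CPM in control and 1.1 to 6.33 CPM in *Sox17*-*Erg* libraries and was called at no time point, with a log2 fold change of -1.09 at 4 weeks (edgeR adjusted p = 0.21).

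Thin filament genes were called in 1 direction, lower in *Sox17*-*Erg* samples. Of 5 tested genes, *Tnnt2* was lower on Day 3, *Tnni3* on Day 7, and *Tnni3* and *Actc1* at 4 weeks, which is 1, 1 and 2 of 5 beside the same 5.13%, 7.93% and 11.0% of all tested genes. *Tnnt2*, cardiac troponin T, had 1431 and 832 CPM in control libraries on Day 3, 804 and 526 on Day 7, and 930 and 1097 at 4 weeks. In *Sox17*-*Erg* libraries it had 356 and 298 CPM, 334 and 419, and 665 and 642. All *Sox17*-*Erg* libraries were below both controls of their time point, and the log2 fold change was -1.79 on Day 3 (standard error 0.29, edgeR adjusted p = 0.0072), -0.82 on Day 7 (0.28, 0.076) and -0.63 at 4 weeks (0.28, 0.14). The difference in effect between 4 weeks and Day 3, 1.16, had an adjusted p of 0.17. The Day 3 call was lost without *Sox17*-*Erg* Day 3 replicate 1 (-1.96, 0.059).

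*Actc1*, the cardiac alpha actin, had 13.7 and 9.2 CPM in control libraries on Day 3, 8.18 and 9.69 on Day 7, and 9.07 and 26.1 at 4 weeks, against 6.73 and 5.56, 2.29 and 3.87, and 0.743 and 2.85 CPM in *Sox17*-*Erg* libraries. The libraries did not overlap at any time point. Its log2 fold change was -0.90, -1.55 and -3.29, with a call at 4 weeks (standard error 0.65, edgeR adjusted p = 0.0066) that was kept in all 12 fits without a library, from -4.57 to -2.33. *Tnni3*, cardiac troponin I, had 1.64 and 1.48 CPM in control libraries on Day 3, 2.38 and 1.57 on Day 7, and 3.66 and 4.31 at 4 weeks, against 1.21 and 1.03, 1.1 and 0.615, and 0.956 and 0.963 CPM. Control levels rose while *Sox17*-*Erg* levels stayed near 1 CPM, with log2 fold changes of -1.17 on Day 7 (edgeR adjusted p = 0.048) and -2.05 at 4 weeks (0.0033). The Day 7 call was lost in all 12 fits without a library, over values of -1.67 to -0.87, and the 4-week call was kept in all 12. Exons of *Dnaaf3* overlap *Tnni3* on the same strand, so its counts are uncertain. *Dnaaf3* had 0.852 to 3.3 CPM and was called in the other direction at 4 weeks (log2 fold change 1.68). *Tnnc1*, the calcium-binding subunit, had 2.15 to 3.01 CPM in control and 0.862 to 1.77 CPM in *Sox17*-*Erg* libraries and was called at no time point.

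Genes of titin, the Z-disc and the M-band moved in both directions. Of 10 tested genes, 0 were called on Day 3, 2 were higher and 1 lower on Day 7, and 2 were higher and 4 lower at 4 weeks. Among all tested genes 7.19% were higher and 5.13% lower on Day 3, 9.48% and 7.93% on Day 7, and 11.9% and 11.0% at 4 weeks. *Myoz2*, a Z-disc protein that binds calcineurin, had 1.2 and 1.48 CPM in control libraries on Day 3, 0.538 and 0.723 on Day 7, and 0.551 and 0.895 at 4 weeks. *Sox17*-*Erg* libraries had 6.07 and 2.59 CPM, 6.29 and 11.9, and 24.2 and 14.7. All *Sox17*-*Erg* libraries were above all control libraries. The log2 fold change was 1.69 on Day 3 (standard error 0.49, edgeR adjusted p = 0.055), 3.84 on Day 7 (0.53, 0.0018) and 4.77 at 4 weeks (0.54, 0.00036), a 27.4-fold difference. Both later calls were kept in all 12 fits without a library.

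*Myom1*, which encodes the M-band protein myomesin 1, had 20.2 and 12.3 CPM in control libraries on Day 3, 9.26 and 7.52 on Day 7, and 8.85 and 11.6 at 4 weeks, against 16.8 and 15.5, 35.5 and 23.4, and 38.5 and 34.2 CPM in *Sox17*-*Erg* libraries. The Day 3 libraries overlapped and the later ones did not. Its log2 fold change was -0.01 on Day 3 (standard error 0.28, edgeR adjusted p = 0.99), 1.81 on Day 7 (0.28, 0.0027) and 1.83 at 4 weeks (0.27, 0.0016). *Myom1* was the only 1 of the 36 genes whose *Sox17*-*Erg* effect differed between time points by edgeR without pairs, by 1.84 between 4 weeks and Day 3 (0.38, 0.036), where 3.21% of all tested genes passed that test. With same-numbered libraries as pairs, 4 genes passed it with a positive and 7 with a negative difference, where 4.11% and 2.77% of all tested genes did. The positive ones were *Myom1*, *Myoz2*, *Cacna1c* and *Ldb3*, and the negative ones *Myh6*, *Actc1*, *Mybpc3*, *Myl2*, *Myom2*, *Nppa* and *Ttn*. This call was lost in 7 of 12 fits without a library, those without control Day 3 replicate 1 or any library of Day 3 *Sox17*-*Erg* or of 4 weeks, over values of 1.44 to 2.22, and DESeq2 called 6 further genes between these times besides *Myom1*, namely *Myoz2*, *Cacna1c*, *Hspb7*, *Tnnt2*, *Ldb3* and *Myh6*. Exons of *Myl12a* overlap it on the other strand, and it is not stated whether strand was used in counting, so reads of such pairs cannot be told apart. *Myl12a* had 210 to 358 CPM and was not called, with log2 fold changes of 0.06, 0.46 and -0.20 (adjusted p = 0.83, 0.097 and 0.43). In all, 16 of the 39 genes have exons that overlap another gene on the other strand, among them *Myh6*, *Myh7*, *Myl2*, *Myl3*, *Myl4*, *Ttn*, *Pln*, *Atp2a2*, *Cryab*, *Ckmt2*, *Mb*, *Fabp3* and *Nppa*. Of their partners, *Hspb2* at *Cryab* had 2.41 to 6.7 CPM, *Cep85l* at *Pln* 5.41 to 9.06, *Pth1r* at *Myl3* 4.66 to 15.9, *Zcchc17* at *Fabp3* 11.8 to 18.6, *Ccdc63* at *Myl2* 0.389 to 0.911 and *Apol6* at *Mb* 0.0804 to 2.8 CPM, all without a call against control. The other partners are not among the genes with deposited counts, so their levels are not known here.

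*Nebl*, the Z-disc protein nebulette, had 1.78 and 1.25 CPM in control libraries on Day 3, 3.15 and 2.69 on Day 7, and 5.34 and 7.04 at 4 weeks, against 1.11 and 0.474, 0.717 and 0.439, and 2.23 and 2 CPM in *Sox17*-*Erg* libraries. It rose with time in control samples and was lower in all *Sox17*-*Erg* libraries, with log2 fold changes of -2.30 on Day 7 (standard error 0.42, edgeR adjusted p = 0.0066) and -1.54 at 4 weeks (0.38, 0.019). The 4-week call was lost without control replicate 2 (-1.32, 0.09) or either *Sox17*-*Erg* library of that time (-1.63, 0.088 and -1.49, 0.09). *Ttn*, encoding titin, had 19.1 and 10.3 CPM in control libraries on Day 3, 8.1 and 15.2 on Day 7, and 15.5 and 27.7 at 4 weeks, against 10.4 and 5.21, 4.33 and 6.81, and 2.34 and 4.56 CPM. The groups overlapped on Day 3 by a narrow margin and were furthest apart at 4 weeks, with a log2 fold change of -2.64 (0.54, edgeR adjusted p = 0.0078) that missed the threshold without *Sox17*-*Erg* 4 weeks replicate 1 (-2.25, 0.072).

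*Actn2*, the Z-disc alpha-actinin of heart muscle, had 3.86 and 2.59 CPM in control libraries on Day 3, 2.3 and 2.69 on Day 7, and 2.68 and 4.31 at 4 weeks, against 2.83 and 1.68, 0.965 and 1.01, and 0.637 and 1.19 CPM in *Sox17*-*Erg* libraries. It was lower at 4 weeks by a log2 fold change of -1.93 (edgeR adjusted p = 0.01). *Myom2*, a second M-band myomesin, had 4.48 and 1.99 CPM in control libraries on Day 3, 1.46 and 2.73 on Day 7, and 2.51 and 4.43 at 4 weeks, against 3.74 and 2.2, 1.08 and 1.67, and 0.496 and 0.963 CPM. Its 4-week log2 fold change of -2.24 (0.58, edgeR adjusted p = 0.022) was opposite in sign to that of *Myom1*. Without control 4 weeks replicate 2 or *Sox17*-*Erg* 4 weeks replicate 1, the adjusted p was 0.056 and 0.082 for *Actn2* (-1.55 and -1.56) and 0.1 and 0.15 for *Myom2* (-1.77 and -1.85).

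*Ldb3*, the Z-disc protein also known as cypher, had 14.3 and 9.66 CPM in control libraries on Day 3, 6.45 and 3.22 on Day 7, and 7.49 and 8.74 at 4 weeks, against 6.28 and 6.25, 9.26 and 7.51, and 13.9 and 12.4 CPM in *Sox17*-*Erg* libraries. *Sox17*-*Erg* libraries were the lower ones on Day 3 and the higher ones afterwards, but no time point was called, with log2 fold changes of -0.94, 0.80 and 0.70 (edgeR adjusted p = 0.078, 0.11 and 0.13). *Tcap*, *Csrp3*, *Xirp2* and *Smpx* stayed under 1 CPM in all libraries, and *Xirp1* was at most 1.63 CPM. *Smpx* passed the filter only through control libraries, so that its comparison with them is a description. It was at the floor of 3 counts in the *Sox17*-*Erg* samples at 4 weeks and at least 5.21-fold lower than in control samples, without a call (edgeR adjusted p = 0.093).

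**Figure D3:**
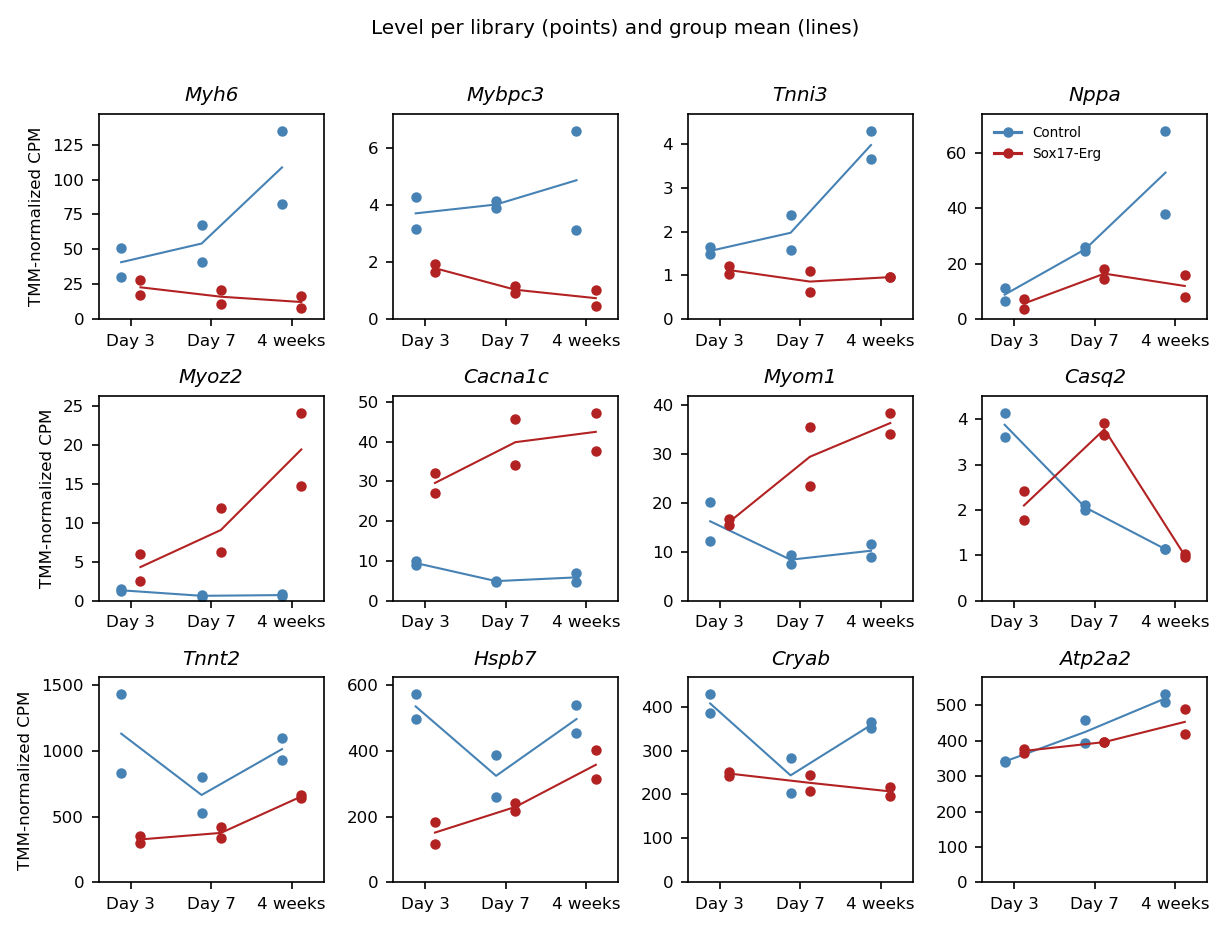
TMM-normalized CPM of 12 of the genes on Day 3, Day 7 and 4 weeks, with a point for each library and lines through the means of 2 libraries, on linear axes that start at 0 and with the time points evenly spaced. In control samples *Myh6*, *Tnni3* and *Nppa* are highest at 4 weeks, *Myoz2* and *Cacna1c* stay high in *Sox17*-*Erg* samples and low in control samples, and *Tnnt2* and *Hspb7* are furthest apart on Day 3.

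Among 5 tested calcium handling genes, the plasma membrane channel was higher and phospholamban lower in *Sox17*-*Erg* samples. *Cacna1c*, the pore-forming subunit of the L-type calcium channel, had 9.02 and 9.94 CPM in control libraries on Day 3, 5.07 and 4.78 on Day 7, and 4.79 and 6.95 at 4 weeks. In *Sox17*-*Erg* libraries it had 27.2 and 32 CPM, 45.6 and 34.1, and 37.6 and 47.3. The lowest *Sox17*-*Erg* library was above the highest control library. The log2 fold change was 1.64 on Day 3 (standard error 0.21, edgeR adjusted p = 0.0028), 3.02 on Day 7 (0.23, 0.0001) and 2.86 at 4 weeks (0.22, 5.4e-05), and each call was kept in all 12 fits without a library.

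*Pln*, which encodes phospholamban, the inhibitor of SERCA2a, had 2.4 and 1.71 CPM in control libraries on Day 3, 2.65 and 1.93 on Day 7, and 2.66 and 4.84 at 4 weeks, against 1.21 and 0.991, 0.496 and 0.571, and 0.566 and 1.11 CPM in *Sox17*-*Erg* libraries. All *Sox17*-*Erg* libraries were below both controls of their time, with log2 fold changes of -2.10 on Day 7 (edgeR adjusted p = 0.013) and -2.15 at 4 weeks (0.0073). The Day 7 call was lost without control replicate 1 (-1.88, 0.054) or *Sox17*-*Erg* replicate 1 (-1.99, 0.11), and the 4-week call without *Sox17*-*Erg* replicate 1 (-1.75, 0.063). *Atp2a2*, the gene of the SERCA2 pump that *Pln* inhibits, had 340 and 342 CPM in control libraries on Day 3, 392 and 457 on Day 7, and 531 and 508 at 4 weeks, against 365 and 377, 395 and 397, and 488 and 418 CPM. It was called at no time point, with log2 fold changes of 0.12, -0.10 and -0.20 and a standard error of 0.13 for each (edgeR adjusted p = 0.56, 0.64 and 0.3).

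*Casq2*, the calcium-binding calsequestrin of the sarcoplasmic reticulum, had 4.15 and 3.61 CPM in control libraries on Day 3, 2.11 and 2.01 on Day 7, and 1.13 and 1.14 at 4 weeks, against 2.43 and 1.77, 3.91 and 3.65, and 1.03 and 0.963 CPM in *Sox17*-*Erg* libraries. It was below control on Day 3 (log2 fold change -0.89, edgeR adjusted p = 0.047) and above control on Day 7 (0.87, 0.037), and the difference of 1.76 between these effects did not pass with edgeR (adjusted p = 0.13), a test that 0.0838% of all tested genes passed. DESeq2 called this difference and neither of the single effects. The calls were lost in 12 and 10 of 12 fits without a library, over values of -1.17 to -0.68 and 0.82 to 0.89. *Ryr2*, the cardiac ryanodine receptor, had 3.84 to 11.7 CPM in control and 2.5 to 4.15 CPM in *Sox17*-*Erg* libraries, with a log2 fold change of -1.38 at 4 weeks that missed the threshold (edgeR adjusted p = 0.052).

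The small heat shock proteins were abundant, and *Hspb7* and *Cryab* were both lower on Day 3. *Hspb7*, a chaperone of heart and skeletal muscle, had 572 and 498 CPM in control libraries on Day 3, 387 and 261 on Day 7, and 454 and 539 at 4 weeks, against 118 and 185, 217 and 242, and 402 and 313 CPM in *Sox17*-*Erg* libraries. All *Sox17*-*Erg* libraries were lower, with a call on Day 3 (log2 fold change -1.82, standard error 0.26, edgeR adjusted p = 0.0045) and values of -0.50 and -0.47 later (0.21 for both). *Cryab*, alpha B-crystallin, had 428 and 386 CPM in control libraries on Day 3, 283 and 204 on Day 7, and 352 and 364 at 4 weeks, against 243 and 252, 244 and 209, and 217 and 197 CPM. It was lower on Day 3 (-0.72, edgeR adjusted p = 0.024) and 4 weeks (-0.79, 0.0081), and on Day 7 the groups overlapped. The Day 3 call was lost without any 1 of the 4 Day 3 libraries, over values of -0.83 to -0.64, and the 4-week call without *Sox17*-*Erg* 4 weeks replicate 2 (-0.75, 0.052).

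*Trim63*, the muscle ubiquitin ligase MuRF1, had 2.66 and 2.36 CPM in control libraries on Day 3, 5.49 and 5.14 on Day 7, and 6.11 and 2.44 at 4 weeks, against 0.354 and 0.172, 0.221 and 1.27, and 1.2 and 1 CPM in *Sox17*-*Erg* libraries. The log2 fold change was -3.25 on Day 3 (standard error 0.79, edgeR adjusted p = 0.031), -2.90 on Day 7 (0.70, 0.021) and -1.96 at 4 weeks (0.66, 0.061). These calls were lost in 5 of 12 fits on Day 3 (-3.87 to -2.81) and 3 of 12 on Day 7 (-4.60 to -2.06), each time without libraries of that time point and, on Day 3, also without *Sox17*-*Erg* 4 weeks replicate 2.

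The energy genes were scarce. *Mb*, the oxygen-binding protein myoglobin, had 2.18 and 1.16 CPM in control libraries on Day 3, 3.76 and 2.57 on Day 7, and 2.86 and 6.63 at 4 weeks, against 1.27 and 0.345, 1.05 and 1.49, and 0.354 and 1.19 CPM in *Sox17*-*Erg* libraries. It was lower at 4 weeks (log2 fold change -2.61, standard error 0.72, edgeR adjusted p = 0.03), and the call was lost without control replicate 2 (-1.89, 0.14) or *Sox17*-*Erg* replicate 1 (-2.00, 0.17). *Ckmt2*, the mitochondrial creatine kinase of muscle, had 0.614 and 0.643 CPM in control libraries and 0.0827 and 0.0439 CPM in *Sox17*-*Erg* libraries on Day 7, where the latter were at the floor and at least 5.86-fold lower (edgeR adjusted p = 0.034). *Ckmt2* passed the filter only through control samples of Day 7 and 4 weeks, where it is high, and so had to differ. On Day 3 and 4 weeks it had 0.291 and 0.0462 and 0.451 and 0.773 CPM in control libraries, against 0.0506 and 0.0862 and 0.0708 and 0.222, without a call. The Day 7 call was lost in 8 of 12 fits without a library. *Fabp3*, the heart fatty acid-binding protein, had 2.77 and 2.96 CPM in control libraries on Day 3, 0.845 and 0.764 on Day 7, and 0.777 and 0.935 at 4 weeks, against 1.32 and 1.55, 0.607 and 0.439, and 0.708 and 0.741. No time point was called for it (edgeR adjusted p = 0.065, 0.25 and 0.65), and it shares 35.2% of its 31-base words with *Fabp3-ps1*, so its counts are uncertain.

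Of the natriuretic peptides, *Nppa* was called at 4 weeks, and with same-numbered libraries as pairs on Day 3 and Day 7 as well. It had 11.1 and 6.52 CPM in control libraries on Day 3, 24.5 and 25.9 on Day 7, and 37.8 and 68 at 4 weeks, against 7.39 and 3.79, 14.6 and 18.2, and 7.89 and 16 CPM in *Sox17*-*Erg* libraries. The groups overlapped on Day 3 and were furthest apart at 4 weeks, with log2 fold changes of -0.67, -0.62 and -2.15 (standard error 0.44 at 4 weeks, edgeR adjusted p = 0.36, 0.35 and 0.0076). The 4-week call was lost without *Sox17*-*Erg* replicate 1 (-1.74, 0.063). *Nppb* had 0.281 to 1.42 CPM in control and 0.248 to 0.531 CPM in *Sox17*-*Erg* libraries and *Nkx2-5*, the cardiac homeobox transcription factor, 0.0384 to 0.529 and 0.132 to 0.704 CPM, both without a call.

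Single genes were also tested over the 3 time points together, by an exact two-sided permutation test within time points whose smallest possible p is 0.0093. At that p, with no adjustment over the 39 genes, 13 genes had all 6 *Sox17*-*Erg* libraries below both controls of their time and 2, *Myoz2* and *Cacna1c*, had all 6 above. Of all 15506 tested genes, 13.6% were below and 14.6% above in this way. *Tnnc1* and *Fabp3* were the only 2 of these 15 without a call at any single time point.

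Time in culture was compared within control samples to see whether the genes were stable without *Sox17* and *Erg*. From Day 3 to Day 7, 0 of the 36 genes were called higher and 5 lower, where 4.70% of all tested genes were higher and 4.06% lower, or 8.76% in either direction. *Tnni1*, *Ldb3*, *Cacna1c*, *Cryab* and *Fabp3* were lower, with log2 fold changes of -2.80, -1.31, -0.94, -0.74 and -1.82 (edgeR adjusted p = 0.04, 0.036, 0.034, 0.028 and 0.013). Of these, *Tnni1* passed the filter on libraries of Day 3 and control Day 7 alone, and was highest on Day 3. Its call thus partly follows from the filter. These 5 calls became 0 without either control Day 3 library or control Day 7 replicate 2, 1 without *Sox17*-*Erg* Day 3 replicate 1 or 4 weeks replicate 1, and 3 without control 4 weeks replicate 2 or the second *Sox17*-*Erg* library of Day 3 or 4 weeks. An unadjusted p under 0.05 was found for 16 of the 36 genes in either direction, where 26.4% of all tested genes had one, and DESeq2 called 1 gene higher, *Nppa*.

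From Day 7 to 4 weeks, 0 genes were called in either direction, where 0.393% of all tested genes were. There were 11 with an unadjusted p under 0.05, where 15.3% of all tested genes had one, and DESeq2 called 1, *Cryab*. Of the 36 log2 fold changes 32 were positive, with a median of 0.57, where 52% of all tested genes were positive with a median of 0.02. Without control 4 weeks replicate 2, 22 were positive with a median of 0.18, and without control 4 weeks replicate 1, 33 with a median of 0.79. From Day 3 to 4 weeks, 5 genes were higher and 4 lower, against 13.9% and 12.6% of all tested genes. The higher genes were *Nppa* (log2 fold change 2.58, standard error 0.45, edgeR adjusted p = 0.0041), *Nebl* (2.02, 0.39, 0.0068), *Tnni3* (1.35, 0.34, 0.019), *Atp2a2* (0.61, 0.13, 0.0091) and *Tcap*, the titin cap of the Z-disc. *Tcap* had 0.0364 and 0 CPM in control libraries on Day 3, 0.154 and 0.0402 on Day 7, and 0.601 and 0.976 at 4 weeks, which was at least 6.36-fold over the Day 3 floor. It passed the filter only through the control samples at 4 weeks and so had to differ, which leaves 4 higher genes that passed without such a choice. *Sox17*-*Erg* libraries had 0.0354 to 0.296 CPM.

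The lower genes were *Tnni1* (log2 fold change -3.56, standard error 0.72, edgeR adjusted p = 0.0078), *Casq2* (-1.77, 0.25, 0.0017), *Fabp3* (-1.74, 0.31, 0.0048) and *Cacna1c* (-0.70, 0.22, 0.042). *Tnni1* was over the filter's minimum in 5 libraries, all of Day 3 or control Day 7, and in no library of 4 weeks. It thus passed through the early samples, where it is high, and its call at 4 weeks is a description. The higher genes numbered 1 without control Day 3 replicate 2, 2 without control Day 3 replicate 1 and 3 without either control 4 weeks library, and the lower genes numbered 2 without control Day 3 replicate 1. *Nppa*, *Casq2* and *Fabp3* kept their calls in all 12 such fits. *Cacna1c* lost its call in 8 of them, with values of -0.98 to -0.44.

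Within *Sox17*-*Erg* samples, 0 of the 36 genes were called from Day 3 to Day 7, where 3.42% of all tested genes were (2.04% higher and 1.38% lower), with 10 at an unadjusted p under 0.05, where 23.4% of all tested genes had one, and 3 called by DESeq2, *Myom1*, *Nppa* and *Fabp3*. From Day 7 to 4 weeks *Casq2* was the only gene called by edgeR, lower by -1.92 on the log2 scale (standard error 0.25, adjusted p = 0.012), where 0.671% of all tested genes were lower and 1.82% were called in either direction. That call was lost without *Sox17*-*Erg* Day 7 replicate 1 or either *Sox17*-*Erg* 4 weeks library. From Day 3 to 4 weeks, 6 genes were higher and 6 lower, where 15.1% and 15.6% of all tested genes were. The higher genes were *Myoz2* (log2 fold change 2.17, edgeR adjusted p = 0.0086), *Nebl* (1.43, 0.031), *Hspb7* (1.24, 0.0078), *Myom1* (1.17, 0.012), *Ldb3* (1.07, 0.028) and *Tnnt2* (adjusted p = 0.026), which went from 356 and 298 to 665 and 642 CPM. The lower genes were *Myom2* (-2.02, 0.028), *Myh7* (-1.96, 0.032), *Myl2* (-1.48, 0.048), *Actn2* (-1.30, 0.044), *Casq2* (-1.07, 0.014) and *Fabp3* (-0.98, 0.045). The *Fabp3* call was lost with DESeq2, with no filter and with a replicate block over all libraries. *Myl2* and *Actn2* lost theirs with that block, and the other genes named for this interval kept theirs in these runs.

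These counts also turned on single libraries. Without *Sox17*-*Erg* 4 weeks replicate 1 both became 0. The higher genes numbered 2 without either *Sox17*-*Erg* Day 3 library and 3 without *Sox17*-*Erg* 4 weeks replicate 2. The lower genes numbered 0 without *Sox17*-*Erg* Day 3 replicate 1, 2 without control Day 3 replicate 2, and 3 without control Day 3 replicate 1, any Day 7 library or *Sox17*-*Erg* 4 weeks replicate 2.

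From Day 3 to 4 weeks the slow form of troponin I was lower and the cardiac form higher in control samples. *Tnni1*, the slow skeletal form of the fetal heart, had 3.02 and 1.62 CPM in control libraries on Day 3, 0.538 and 0.121 on Day 7, and 0.251 and 0.122 at 4 weeks, against 0.911 and 0.474, 0.386 and 0.264, and 0.212 and 0.296 CPM in *Sox17*-*Erg* libraries. In control libraries its share of the counts of both forms was 64.8% and 52.2% on Day 3, 18.4% and 7.14% on Day 7, and 6.41% and 2.75% at 4 weeks. The Day 3 shares rest on 83 of 128 and 35 of 67 counts, with 95% Wilson intervals of 56.2% to 72.6% and 40.5% to 63.7%, which cover counting error only. In *Sox17*-*Erg* libraries the share was 42.9% and 31.4%, then 25.9% and 30%, then 18.2% and 23.5%, with 6 of 33 and 8 of 34 counts at 4 weeks and intervals of 8.61% to 34.4% and 12.4% to 40%. The *Sox17*-*Erg* shares were the lower ones on Day 3 and the higher ones at 4 weeks.

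The share of *Myh7* in the counts of both myosin heavy chains was 11.8% and 19.4% in control libraries on Day 3, 3.18% and 5.78% on Day 7, and 3.6% and 2.15% at 4 weeks. In *Sox17*-*Erg* libraries it was 18.4% and 21.4%, then 9.57% and 13.6%, then 12.2% and 9.53%. From Day 7 on, both *Sox17*-*Erg* libraries were above both controls. The share of *Nppb* in the counts of both natriuretic peptides was 8.98% and 14% in control libraries on Day 3, 1.85% and 1.08% on Day 7, and 0.984% and 2.05% at 4 weeks, against 3.31% and 6.38%, 1.67% and 2.82%, and 6.3% and 3.15% in *Sox17*-*Erg* libraries. The *Sox17*-*Erg* libraries were below both controls on Day 3, overlapped them on Day 7 and were above both at 4 weeks. None of these 3 shares was tested between the arms. The words that *Myh6* and *Myh7* have in common make the *Myh7* share uncertain, and the same-strand overlap of *Dnaaf3* with *Tnni3* makes the *Tnni1* share uncertain.

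**Figure D4:**
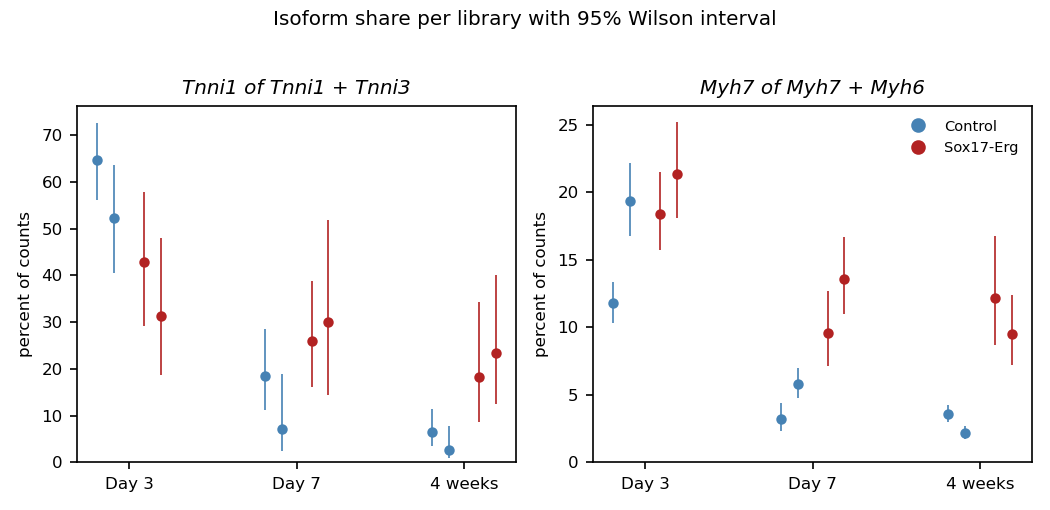
Share of *Tnni1* in the counts of *Tnni1* and *Tnni3*, and of *Myh7* in those of *Myh7* and *Myh6*, as a percent for each library at the 3 time points, with 95% Wilson intervals as bars. The control points fall from 64.8% and 52.2% to 6.41% and 2.75% in the left panel, and the *Sox17*-*Erg* points fall less in both panels.

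The 2 replicates of a group differed in 1 direction for 20 to 30 of the 36 genes. On Day 3, 29 of the 36 tested genes were higher in control replicate 1 than in replicate 2, with a median ratio of 1.46, where 48.1% of all tested genes were higher in replicate 1. At 4 weeks 30 of the 36 were higher in control replicate 2, with a median ratio of replicate 1 to 2 of 0.655, while on Day 7 they split into 20 and 16 with a median ratio of 1.06. In *Sox17*-*Erg* samples 29 were higher in replicate 1 on Day 3, with a median ratio of 1.22, 23 in replicate 2 on Day 7 (0.883) and 24 in replicate 2 at 4 weeks (0.684). The share of all tested genes higher in replicate 1 was 47.4% to 52.1% in the 6 groups. Values of different genes in 1 library are thus not independent of each other.

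Other genes of the same functions were counted from 4 lists, beside the 7.19% of all tested genes called higher and 5.13% lower on Day 3, 9.48% and 7.93% on Day 7, and 11.9% and 11.0% at 4 weeks. Of 22 tested genes of other sarcomere and cytoskeletal proteins, 0 were higher and 2 lower on Day 3, 2 and 4 on Day 7, and 2 and 5 at 4 weeks, with a median log2 fold change of -0.87 at 4 weeks. *Obsl1*, the cytoskeletal adaptor obscurin-like 1, had 80.6 ± 14.1 CPM (SD, n = 2) in *Sox17*-*Erg* and 207 ± 39.4 in control samples at 4 weeks, *Unc45b*, a myosin chaperone, 0.471 ± 0.0151 and 3.24 ± 0.0789, and *Flnc*, filamin C, 165 ± 31.9 and 77.1 ± 4.92. Their log2 fold changes were -1.36, -2.77 and 1.10 (edgeR adjusted p = 0.0013, 0.0051 and 0.0023), lower for the first pair and higher for *Flnc*.

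Of 18 tested genes of calcium handling and excitation outside the 39, 1 was higher and 5 lower on Day 3, 3 and 5 on Day 7, and 4 and 6 at 4 weeks. *Trdn*, triadin of the calcium release complex, had 2.42 ± 0.229 CPM (SD, n = 2) in *Sox17*-*Erg* and 30.2 ± 1.97 in control samples at 4 weeks (log2 fold change -3.64, standard error 0.40, edgeR adjusted p = 0.00033). It rose in control samples from Day 3 to 4 weeks by 3.49 (0.40, 0.00074) and in *Sox17*-*Erg* samples by 2.77 (0.50, 0.0046). *S100a1*, a calcium-binding protein of the heart, and *Jph2*, junctophilin 2, were also lower at 4 weeks, by log2 fold changes of -1.36 and -0.76 (0.0042 and 0.0086).

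Of 14 tested heart muscle transcription factors, 0 were higher and 1 lower on Day 3, 2 and 3 on Day 7, and 3 and 4 at 4 weeks. *Gata6* had 60 ± 10.1 CPM (SD, n = 2) in *Sox17*-*Erg* and 134 ± 28.1 in control samples at 4 weeks (log2 fold change -1.16, edgeR adjusted p = 0.0018), and *Zfpm2*, a GATA cofactor, 26.2 ± 2.97 and 53.3 ± 0.285 (-1.02, 0.0059). *Myocd*, myocardin, a coactivator of serum response factor in heart and smooth muscle, moved the other way, with 7.7 ± 0.682 and 2.04 ± 0.399 CPM (1.93, 0.0074). Of 12 genes of muscle energy metabolism, 0 were higher and 2, 3 and 5 lower at the 3 time points. The last 2 counts include *Cox8b*, which passed the filter only through control samples of Day 7 and 4 weeks and so had to differ. *Pygm*, the muscle glycogen phosphorylase, had 2.24 ± 0.558 CPM in *Sox17*-*Erg* and 27.1 ± 4.3 in control samples at 4 weeks, a log2 fold change of -3.60 (edgeR adjusted p = 0.00014).

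Markers of other cell types that share some of these genes were counted beside them, against the same shares of all tested genes. Of 10 smooth muscle markers, 0 were higher and 2 lower on Day 3, 3 and 1 on Day 7, and 4 and 1 at 4 weeks, and their summed level at 4 weeks was 4597 to 4834 CPM in *Sox17*-*Erg* and 1848 to 3469 CPM in control libraries. *Myh11* rose over control by a log2 fold change of 2.46, *Lmod1* by 1.43 and *Myl9* by 1.42 (edgeR adjusted p = 0.00046, 0.0035 and 0.0042). *Mylk* was lower at all 3 time points and *Lmod1* on Day 3. Of 18 skeletal muscle markers 9 were tested, and their summed level was 6.16 to 15.6 CPM in all libraries, with *Myod1*, *Myog*, *Myf5*, *Pax7*, *Myh4* and *Tnnc2* at 3 counts or fewer in every library. At each time point *Myh2* was higher and *Actn3* lower, and on Day 7 *Tnnt3* was also lower. *Myh2* passed the filter only through *Sox17*-*Erg* and *Tnnt3* only through control samples, so both had to differ. Of 10 epicardial and mesothelial markers, 2, 5 and 8 were lower at the 3 time points and *Tbx18* was higher on Day 7. *Wt1* had a log2 fold change of -2.22 at 4 weeks (edgeR adjusted p = 0.0022).

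Of 10 fibroblast markers, 0 were higher and 1 lower on Day 3, 1 and 3 on Day 7, and 1 and 4 at 4 weeks, and of 9 tested endothelial markers 4, 5 and 7 were higher. Of 10 macrophage markers, 0 were called at any time point, with summed levels of 53.8 to 1416 CPM in control and 76 to 499 CPM in *Sox17*-*Erg* libraries. The part of these cell types in the differences was not tested.

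Motifs were searched on both strands of the upstream sequences. RefSeq entries were found for 34 of the 39 genes, and the 25 with 1 start were searched beside 32851 promoters of the same length. The MEF2 element, a site of muscle transcription factors, was in 4 of the 25, *Mybpc3*, *Myoz2*, *Ttn* and *Xirp2*, and in 0.508% of all promoters. The CArG box, a site of serum response factor, was in *Actc1*, *Myl3*, *Myl7* and *Myom1*, and in 1.47% of all promoters. In the sequences shown, capitals mark the MEF2 element in *Myoz2*, which starts 33 bases before the RefSeq start, and in *Mybpc3*, 90 bases before it, the CArG box in *Myom1*, 99 bases before it, and the M-CAT element in *Myh6*, 206 bases before it. The M-CAT element (CATTCC) was in 6 of the 25 and in 12.6% of all promoters.

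The SOX core (ACAAT), marked in *Myoz2*, was in 4 of the 25 and in 27.7% of all promoters, and the ETS core (CGGAAG), marked in *Mybpc3*, in 2 and in 13.6%. *Erg* belongs to the ETS family. The TATA box (TATAAA) was in 4 and in 12.4%. The MEF2 element was present in 1 gene that was higher and 1 that was lower among those shown. A match is a run of letters and not a binding site, and no binding was measured in these libraries.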

How the data were processed

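Bulk RNAseq was available for 12 libraries in 6 groups of 2, which were assigned from the sample titles. The authors trimmed 2 × 50 base paired reads of a stranded mRNA kit with BBDuk and quantified them with Salmon. The submitters' processing notes name bcl2fastq 2.20.0, Salmon, DESeq2 and mm10. The deposited values are estimated counts per gene, given as whole numbers and not normalized. Neither the replicate origin nor the use of strand in counting is given in the sources used here.

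Counts of all 12 libraries, which totalled 19011635 to 41240449 per library, were fitted with edgeR 4.0.16 in R 4.3.3, with 1 mean per group, TMM normalization, filterByExpr (minimum count 10, minimum total 15), the quasi-likelihood test and Benjamini-Hochberg adjustment over the 15506 genes tested, which left 6 residual degrees of freedom. Standard errors were taken as the log2 fold change divided by the square root of F. CPM were computed with TMM library sizes. Floors are 3 counts per library, and floors and Wilson intervals cover counting error only. Single genes were tested by exact permutation on log2(CPM + 0.5). Alternatives were DESeq2 1.42.0, its size factors in edgeR, no filter, an adjusted p under 0.01, a replicate block, only the libraries of 1 time point, and leaving out each library. For comparisons within *Sox17*-*Erg* samples and for differences in effect, these alternatives were added after seeing the data, as was a replicate block within each time point. The script was tested on simulated data.

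The 39 genes and all lists were chosen with earlier results of these data known. Values in every library are given for genes called in a comparison with control or over control time and for genes with a mean over 50 CPM, the others by range, and list genes by counts with up to 3 called genes of smallest adjusted p at 4 weeks. Exon lengths and overlaps came from GENCODE M21, in which 35422 of the 35727 genes were found, and upstream sequences from RefSeq.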

Additional observations from a re-analysis of the deposited data

Results flagged for a closer look

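The *Sox17*-*Erg* effect on *Myom1* differed between time points by a test of that difference, with a log2 change of 1.84 from Day 3 to 4 weeks (standard error 0.38, edgeR adjusted p = 0.036). The *Sox17*-*Erg* libraries were at 16.8 and 15.5 CPM at Day 3 and at 38.5 and 34.2 CPM at 4 weeks, while the control libraries went from 20.2 and 12.3 to 8.85 and 11.6 CPM. The call was lost in 7 of the 12 fits without a library, with values of 1.44 to 2.22 and adjusted p of up to 0.13.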

How the results depend on the processing

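Of 66 called values, 0 changed direction under any alternative run. Called values that stayed called numbered 62 with DESeq2, 64 with its size factors, 61 with no filter, 63 with the replicate block, 27 at an adjusted p under 0.01 and 577 of 792 when a library was left out, and 29 of 38 with only the 4 libraries of a time point. The cause of these changes was not tested, except that the stricter threshold calls fewer genes by construction.

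Compared with control, genes called higher at Day 3 went from 1 to 2 with DESeq2 or no filter. Genes called lower went from 6 to 2 at Day 3, from 9 to 1 at Day 7 and from 15 to 9 at 4 weeks at an adjusted p under 0.01, and to 5 at Day 7 with only the 4 libraries of that time. In control samples from Day 3 to Day 7, higher genes went from 0 to 1 with DESeq2 or no filter, and lower genes from 5 to 0 at an adjusted p under 0.01, 8 with DESeq2 and 9 with no filter. From Day 7 to 4 weeks higher genes went from 0 to 1 with DESeq2 and 3 with no filter, and between Day 3 and 4 weeks from 5 to 3 at that stricter threshold.

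In *Sox17*-*Erg* samples from Day 3 to Day 7, higher genes went from 0 to 2 with DESeq2 and 3 with no filter, and lower genes from 0 to 1 with either. From Day 7 to 4 weeks higher genes went from 0 to 2 with DESeq2, 4 with no filter and 1 with the replicate block, and lower genes from 1 to 0 at the stricter threshold. Between Day 3 and 4 weeks, 6 higher became 2 and 6 lower became 0 at that threshold. For the difference in effect, higher genes went from 0 to 5 with DESeq2 or no filter between Day 7 and Day 3, and lower genes from 0 to 1 with no filter between 4 weeks and Day 7. Between 4 weeks and Day 3, higher genes went from 1 to 0 at an adjusted p under 0.01, to 6 with DESeq2 or no filter and to 2 with DESeq2 size factors, and lower genes from 0 to 1 with DESeq2 and 6 with no filter.

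Leaving out a library gave 1 to 2 higher and 1 to 6 lower genes at Day 3, 3 to 4 and 1 to 9 at Day 7, and 3 to 4 and 6 to 16 at 4 weeks. In control samples it gave 0 higher and 0 to 5 lower from Day 3 to Day 7, 0 and 0 from Day 7 to 4 weeks, and 1 to 6 and 2 to 4 from Day 3 to 4 weeks. For *Sox17*-*Erg* samples it gave 0 and 0, then 0 and 0 to 1, and 0 to 7 and 0 to 7, and for the difference in effect 0 to 2 higher and 0 lower genes.

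Libraries of different groups share replicate numbers, which the labels do not tie to a shared isolation, while the methods say that control and treated replicates were run in parallel. Deviations of same-numbered libraries from their group means correlated at 0.287, 0.403 and 0.208 between *Sox17*-*Erg* and control samples at Day 3, Day 7 and 4 weeks, and at 0.193 to 0.317 in the 4 pairs of a Day 3 with a Day 7 group, but at -0.185 to -0.017 in the 8 pairs of either with a group of 4 weeks. A block of same-numbered libraries within each time point, added after seeing the data, kept 38 of 39 calls. It moved the counts compared with control on Day 3 to 2 higher and 12 lower, on Day 7 to 5 and 15 and at 4 weeks to 3 and 17, and those for the difference in effect to 2 and 0 between Day 7 and Day 3, 0 and 3 between 4 weeks and Day 7, and 4 and 7 between 4 weeks and Day 3. With the replicate block over all 12 libraries the counts compared with control were 1 and 6, 4 and 9, and 3 and 15, as without it. It moved the lower genes from 5 to 7 in control samples from Day 3 to Day 7, and from 6 to 4 in *Sox17*-*Erg* samples from Day 3 to 4 weeks. Depth limited *Ckmt2*, *Smpx* and *Tcap*, which were at or under 3 counts in some groups, so that folds against these are bounds.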
